A study of Rattus norvegicus with 12 samples.

Results

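The genes described here are 10 chaperones, folding enzymes and stress-response genes of the endoplasmic reticulum (ER), measured in rat anterior pituitary glands: *Hspa5*, *Hsp90b1*, *Calr*, *Canx*, *Pdia3*, *Pdia4*, *Pdia6*, *Xbp1*, *Herpud1* and *Sdf2l1*. Members were taken by name, as every probe set of the array whose platform annotation gives exactly 1 of these symbols. This gave 13 probe sets of 31042 that are no controls, and 10 genes of 14217 that have a probe set with a single symbol. *Canx* has 3 probe sets, *Pdia3* has 2 and the other members have 1 each. All 13 passed the filter on dim probe sets, a mean signal of at least 69.5, which left 18626 to be tested.

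The arrays came from 12 samples of male rats of 4 congenic lines, with 3 arrays for each. A congenic line carries a stretch of the genome of a donor strain on the background of another strain, here alleles of the COP strain on ACI. The donor stretch lies on chromosome 6 in Ept1, on chromosome 3 in both Ept2 and Ept6, and on chromosome 10 in Ept9. All animals carried a silastic implant with 5 mg of diethylstilbestrol (DES), a synthetic estrogen, from 9 weeks of age until 21 weeks, and were injected with BrdU at 50 mg/kg 4 hours before the end. There was no untreated animal and no animal of the ACI strain among these arrays, so the lines could be compared with each other but no effect of DES could be measured. The labels do not settle replication, since the series text counts 3 biological replicates a line while the notes of single samples count fewer independent ones from 3 males. The p-values below therefore measure the spread between these arrays, which may in part be technical.

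The ER is where secreted and membrane proteins enter the export pathway, fold and receive their sugars. The HSP70-type chaperone BiP, encoded by *Hspa5*, holds unfolded chains, calnexin and calreticulin hold sugar-bearing ones, and protein disulfide isomerases join the right cysteines. When unfolded protein builds up, the sensors IRE1, PERK and ATF6 start the unfolded protein response (UPR), in which the transcription factors XBP1, ATF4 and ATF6 raise the genes for chaperones and for the disposal of misfolded protein. The anterior pituitary releases protein hormones in bulk, and estrogen is known to enlarge its population of lactotrophs, the cells that secrete prolactin.

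Several of these genes are textbook targets of one promoter element, so the promoters were read first. The ER stress response element (ERSE) is spelled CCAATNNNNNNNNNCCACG, with N for any base, and its CCAAT part binds NF-Y while the CCACG part is the side bound by ATF6 and XBP1. Promoter windows of 300 bases, from 250 before to 50 after the annotated start site, were taken from the RefSeq annotation of the rat build GRCr8 and searched on both strands. Windows were at hand for 8 of the 10 genes, all but *Pdia3* and *Pdia6*. The ERSE stood in 5 of these 8 genes (62.5%), namely *Hspa5*, *Hsp90b1*, *Calr*, *Canx* and *Xbp1*, and in 21 of all 27457 genes with a window (0.0765%). Known targets of the element were among the names chosen, so a share above that of all genes was built into the choice. The stretches around the matches are shown as a description. Each runs from 5′ to 3′ on the strand of its gene, and capitals mark the 2 parts of the element; CGTGG followed by ATTGG is the element read from the other strand. They lie at chr3:38452958-38453006 on the plus strand (*Hspa5*), chr7:23012332-23012484 on the minus strand (*Hsp90b1*), chr19:40213120-40213168 on the plus strand (*Calr*), chr10:35158054-35158102 on the minus strand (*Canx*) and chr14:84604543-84604591 on the plus strand (*Xbp1*).
Hspa5: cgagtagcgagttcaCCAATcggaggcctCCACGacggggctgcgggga
Hsp90b1: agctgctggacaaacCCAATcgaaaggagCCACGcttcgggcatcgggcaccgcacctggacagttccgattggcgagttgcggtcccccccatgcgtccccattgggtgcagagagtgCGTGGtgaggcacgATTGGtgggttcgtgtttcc
Calr: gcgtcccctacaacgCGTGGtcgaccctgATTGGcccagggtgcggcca
Canx: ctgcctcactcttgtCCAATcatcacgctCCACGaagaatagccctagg
Xbp1: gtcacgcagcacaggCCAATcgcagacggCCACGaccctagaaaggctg

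The match of *Hspa5* lay nearest to the start site, from -43 to -25. *Xbp1* held it from -65 to -47, while *Canx* (-230 to -212) and *Calr* (-232 to -214) held it near the far end of the window. *Hsp90b1*, which encodes the HSP90-type chaperone of the ER (GRP94), was the member with 2 matches, from -176 to -158 on the strand of the gene and from -72 to -54 on the other strand. *Herpud1*, whose membrane protein takes part in the degradation of ER proteins, had no ERSE but the shorter ERSE-II, spelled ATTGG, then 1 base of any kind, then CCACG, from -124 to -114. ERSE-II was held by 17 of all genes (0.0619%). It is given here because it holds the same 2 parts at another spacing, with the CCAAT part read from the other strand. The stretch lies at chr19:10614806-10614846 on the minus strand.
Herpud1: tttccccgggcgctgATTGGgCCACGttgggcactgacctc

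The core of the UPR element, TGACGTG, a site for XBP1 and ATF6, was found in *Hspa5* alone among the 8, from -135 to -129, against 555 of all genes (2.02%). *Pdia4* and *Sdf2l1* held none of the 3 elements in their windows, which says only that these letters are not there. All 8 windows held the bare CCAAT, a motif that lies inside the ERSE and, on the other strand, inside ERSE-II, and that was chosen after the sequences had been seen. It stood in 39.6% of all genes. Among 96 further ER genes with a window, listed below, the ERSE was found in 3 (*Creld2*, *Dnajc3* and *Ero1b*), ERSE-II in 3 (*Dnajb11*, *Hyou1* and *Nucb1*) and the UPR core in 10. A match describes the letters of a window, and binding was not measured in these samples.

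**Figure D1:**
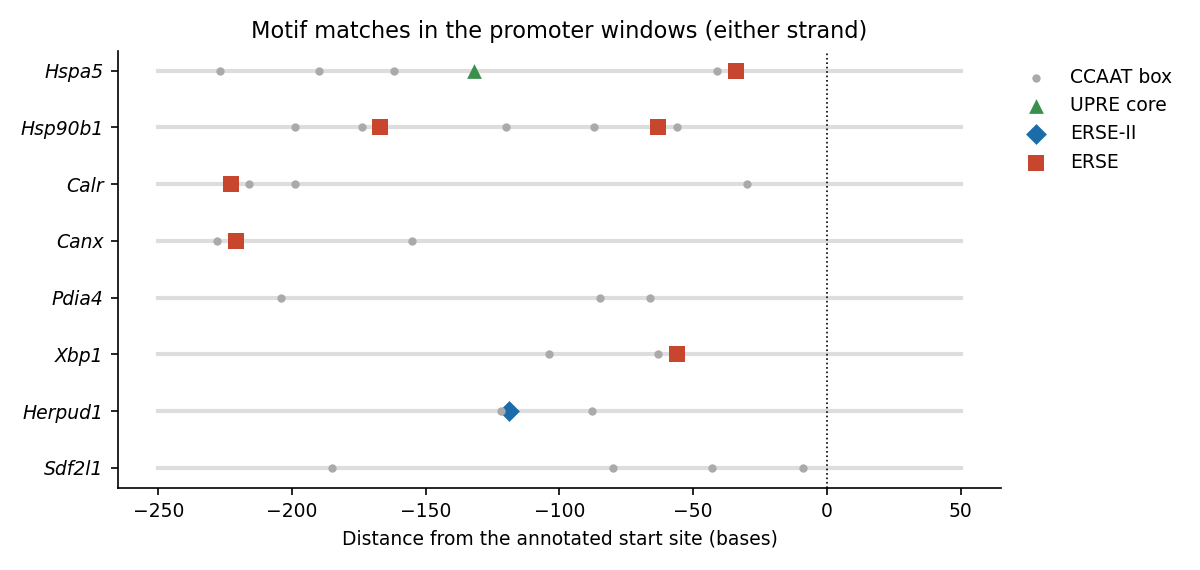
Matches of 4 motifs, on either strand, in the promoter windows of 8 genes. The x axis is the distance in bases of the centre of each match from the annotated start site, grey bars are the windows searched and symbols are single matches. ERSE squares stand in 5 genes, with 2 of them in *Hsp90b1*, and the ERSE-II diamond stands in *Herpud1* alone.

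In the arrays, the 10 genes gave some of the brightest signals of the gland. The deposited signal is a linear brightness scaled to the same trimmed mean on every array (500.18 to 500.193). The place of a probe set is given here as its percentile among all 31042 probe sets of its array, as the median of the 12 arrays. Probes differ in how well they bind, so a percentile describes a place on this array and not an amount of RNA that could be set against that of another gene. With the brightest probe set of each gene, the median percentile of the 10 genes was 99.2, and 9 of them stood above the 95th percentile. Of all genes with a single symbol, 8.38% stood there and the median was 65.8. Since the RNA came from whole tissue, more cells of a type and more RNA per cell cannot be told apart.

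Among the chaperones, *Hspa5* stood at a median percentile of 99.7 and between rank 87 and rank 119 on every array. Its signal was 22568, 25067 and 23174 on the 3 arrays of Ept1, 24894, 23927 and 24207 in Ept2, 23402, 25059 and 23082 in Ept6, and 22658, 24957 and 24622 in Ept9. The lines overlapped throughout, and the brightest array exceeded the dimmest 1.11-fold. The order of the line means was Ept2, Ept9, Ept6 and Ept1, but their largest difference was 0.05 on the log2 scale.

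*Hsp90b1* stood at percentile 99.6. It measured 22411, 22091 and 21850 in Ept1, 22214, 22259 and 20174 in Ept2, 21125, 21954 and 20520 in Ept6, and 20898, 22037 and 23294 in Ept9. No line stood apart, and the highest array was 1.15-fold above the lowest. *Sdf2l1*, which encodes a small ER protein that works beside BiP and its J-domain partners, stood at percentile 97.5. It measured 4667, 5617 and 5101 in Ept1, 4693, 5931 and 5372 in Ept2, 5145, 5664 and 5148 in Ept6, and 5719, 5962 and 5890 in Ept9. The Ept9 arrays were high and close together, but 1 array of Ept2 lay among them.

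The lectin chaperones were *Calr* and *Canx*, for calreticulin in the ER lumen and calnexin in its membrane. *Calr*, at percentile 99.1, measured 11282, 12347 and 12320 in Ept1, 10547, 9970 and 12300 in Ept2, 10962, 11806 and 9159 in Ept6, and 11082, 12062 and 12173 in Ept9. It varied most from array to array among the 10 genes, with an SD of 0.14 on the log2 scale over the 12 arrays, and again no line was separate. The brightest *Canx* probe set (1388442_at, percentile 98.7) measured 8714, 9332 and 9273 in Ept1, 8924, 9429 and 9193 in Ept2, 8566, 9040 and 8869 in Ept6, and 9576, 9744 and 8972 in Ept9. The lines overlapped there too.

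The second *Canx* probe set (1371686_at, percentile 98.1) gave 7595, 7697 and 7464 in Ept2, 6919, 7018 and 6837 in Ept1, 6333, 6761 and 6244 in Ept6, and 6802, 6912 and 6545 in Ept9. Here all 3 arrays of Ept2 lay above the 9 others. How often a line is separate in other probe sets of the array is not given here. In the third (1371687_at, percentile 95.5), Ept2 had the lowest mean, 3120 ± 271 (SD, n = 3), against 3337 ± 2.4 in Ept1, 3462 ± 281 in Ept6 and 3499 ± 147 in Ept9. The 3 probe sets of *Canx* thus gave Ept2 minus the other lines as 0.01, 0.18 and -0.14 on the log2 scale, and they did not rank the lines alike.

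The disulfide isomerases were *Pdia3* (ERp57, the partner of the lectin chaperones), *Pdia4* (ERp72) and *Pdia6* (P5). *Pdia3* (1398788_at), at percentile 99.7, measured 23220, 24609 and 22820 in Ept1, 23254, 27039 and 23045 in Ept2, 23396, 24870 and 22485 in Ept6, and 24283, 23385 and 23972 in Ept9. Its highest value was 1 array of Ept2, while the other 2 of that line sat within the range of the rest. The other *Pdia3* probe set (1392920_at) ran from 318 to 569, at percentile 72.0, so the 2 probe sets of this gene differ widely in brightness.

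*Pdia4*, at percentile 98.5, measured 8606, 8280 and 7647 in Ept1, 8588, 9205 and 9375 in Ept2, 7302, 8021 and 7761 in Ept6, and 8102, 8941 and 8582 in Ept9. Every Ept2 array was above every Ept6 array. Ept1 overlapped both of these lines, and Ept9 overlapped Ept2 and lay above Ept6. *Pdia6*, at percentile 99.5, measured 16361, 17247 and 17445 in Ept1, 16524, 16524 and 15260 in Ept2, 15934, 17262 and 16321 in Ept6, and 17115, 17186 and 17901 in Ept9. Its means were highest in Ept9 and lowest in Ept2, with overlap between neighbours in the order of the lines.

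Of the stress-response genes, *Xbp1* encodes the transcription factor whose messenger is spliced by IRE1. At percentile 99.4, it measured 15309, 15784 and 15184 in Ept1, 14137, 15414 and 13771 in Ept2, 15418, 14564 and 14621 in Ept6, and 15154, 14947 and 15247 in Ept9. The array signal does not separate its spliced and unspliced forms. *Herpud1*, a target of the UPR, was the member with the lowest place, percentile 94.8. It measured 3088, 3112 and 2978 in Ept1, 2933, 3074 and 2983 in Ept2, 2959, 3157 and 3123 in Ept6, and 2864, 2939 and 2692 in Ept9. Ept9 held its 2 lowest arrays, yet the third was above the lowest array of Ept2.

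**Figure D2:**
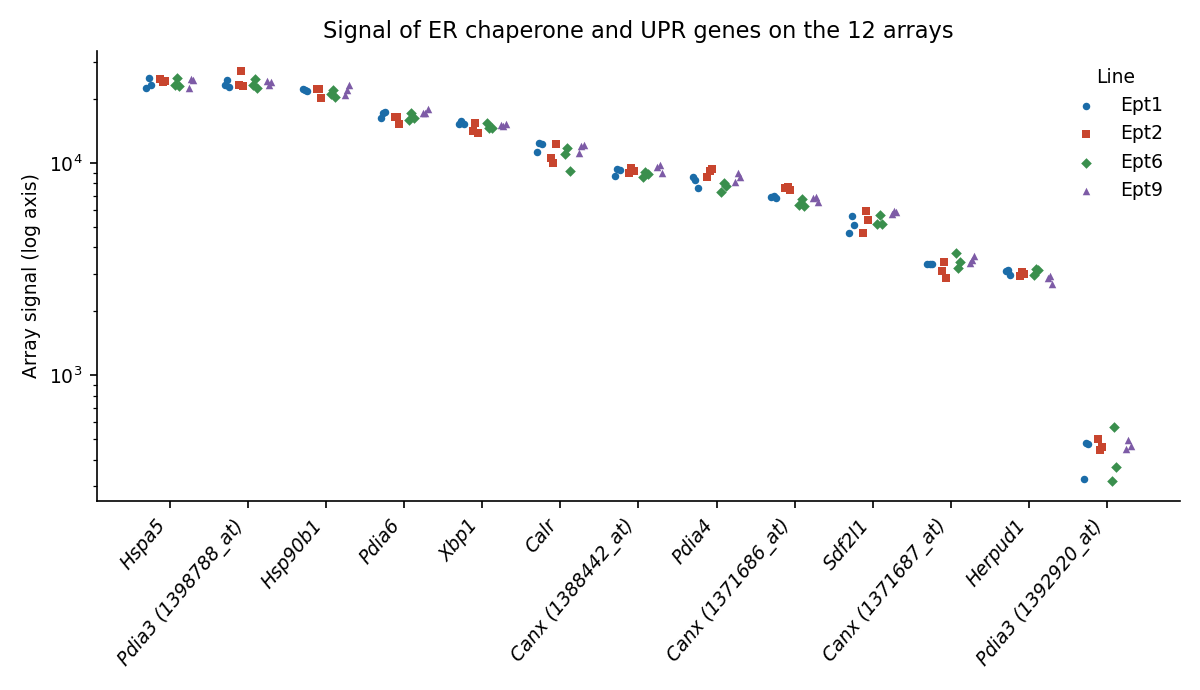
Signal of the 13 probe sets on the 12 arrays, on a log axis. Each symbol is 1 array, coloured by line, and probe sets are ordered by median signal along the x axis. The arrays of a probe set lie within a factor of 1.11 to 1.35 of each other, except for the dim probe set of *Pdia3* (1392920_at), which spans a factor of 1.79.

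The question of the comparison was whether a donor stretch goes with a different level of these genes. A moderated F test among the 4 lines in limma, on log2(signal + 16) and with Benjamini-Hochberg adjustment over all probe sets tested, called 0 of the 13 at an adjusted p under 0.05, beside 0.988% of all probe sets. With each line set against the mean of the other 3, 0 of 13 were called in Ept1 (background 0.193%), Ept2 (0.773%), Ept6 (0.161%) and Ept9 (0.666%). At such backgrounds a list of 13 would hold few calls or none, so these counts alone do not set the members apart from other genes. At an unadjusted p under 0.05, limma's F test had 1 of the 13 (14.1% of all probe sets), and the line tests had 2 in Ept2 (14.4% of all), 2 in Ept6 (10.7% of all), 0 in Ept1 (7.50% of all) and 0 in Ept9 (11.01% of all). The one under the F test was *Canx* 1371686_at, and those of the line tests were *Canx* 1371686_at and *Pdia4* in both lines.

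The differences and their intervals show how large a line difference these arrays still allow. *Canx* 1371686_at in Ept2 had the largest distance from 0 in units of its error, at 0.18 ± 0.06 (SE) or 1.13-fold, with a 95% interval of 1.04 to 1.24 and an limma adjusted p of 0.189. *Pdia4* was 1.11-fold higher in Ept2 (1.004 to 1.24, limma adjusted p = 0.331) and 0.897-fold in Ept6 (0.808 to 0.995, limma adjusted p = 0.450). *Sdf2l1* was 1.12-fold higher in Ept9 (0.98 to 1.27, limma adjusted p = 0.530). For *Hspa5* the 4 lines ran from 0.98-fold to 1.02-fold, with an limma F adjusted p of 0.977. Leaving aside the dim *Pdia3* probe set, every 95% interval of a line against the others lay between 0.80-fold (*Calr* in Ept6) and 1.27-fold (*Sdf2l1* in Ept9). With that probe set the limits were 0.71-fold and 1.39-fold.

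**Figure D3:**
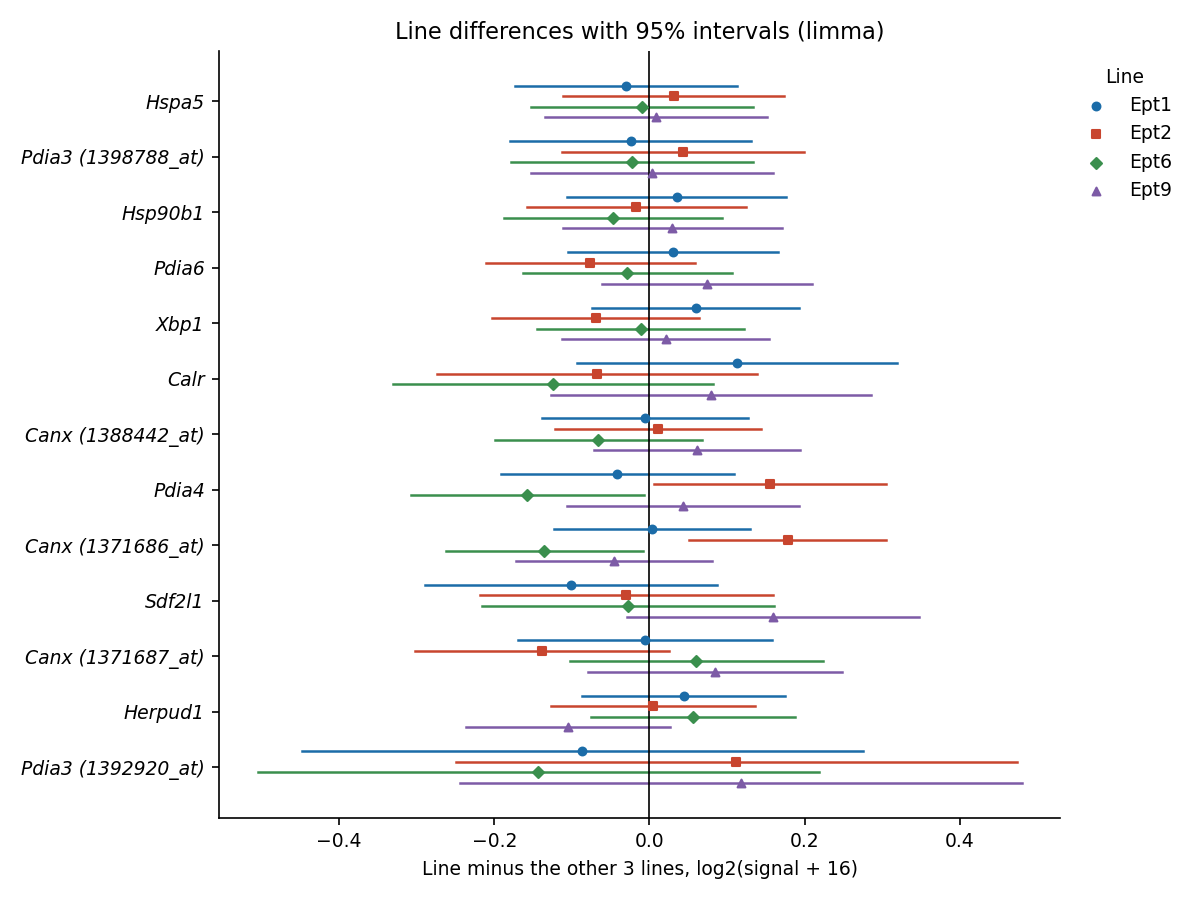
Each line minus the mean of the other 3 lines for the 13 probe sets, on the scale log2(signal + 16). Symbols are the differences, coloured by line, and bars are the 95% intervals from limma. Intervals that leave out 0 are those of *Canx* 1371686_at and *Pdia4* in Ept2 and in Ept6, before any adjustment for the number of tests.

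Exact permutation tests of the F statistic over all 15400 partitions of the arrays were run for the brightest probe set of each of the 10 genes. The raw exact p was 0.0261 for *Pdia4* and 0.0387 for *Herpud1*, and it lay between 0.144 (*Pdia6*) and 0.905 (*Pdia3*) for the other 8. The limma F test draws the spread of a gene towards that of all genes. It gave an unadjusted p of 0.0872 for *Pdia4* (limma adjusted p = 0.429) and of 0.375 for *Herpud1* (limma adjusted p = 0.693). The exact test was run for the members only, so it has no share over all genes beside it. By limma's unadjusted F test 13.2% of the tested genes were under 0.05. Ordered by mean, the lines formed 39 pairs of neighbours over the 13 probe sets, and in 38 of them the arrays overlapped. The exception was Ept2 over Ept1 in *Canx* 1371686_at. How often the lines overlap in other probe sets is not given here, so this count does not set the members apart. No line led the set: Ept1, Ept2 and Ept9 each had the highest mean for 3 of the 10 genes and Ept6 for 1, while Ept6 had the lowest mean for 4, Ept1 for 3, Ept2 for 2 and Ept9 for 1.

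The spread of the members over all 12 arrays was small. Its SD on the log2 scale had a median of 0.064 over the 10 genes, against 0.18 over the 10629 tested genes and 0.096 over the 1191 genes above the 95th percentile. The largest difference between 2 line means had a median of 0.10 over the members, 0.24 over all tested genes and 0.14 over those bright genes. Bright probe sets vary less in general, and the comparison with the bright genes is given for that reason. Those genes had a median percentile of 97.5 and the members 99.2, so the comparison does not remove the difference in brightness. The translocon and oligosaccharide transfer genes described below, at a median of 98.9, had a median SD of 0.083.

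Members on the chromosome of a donor stretch are those whose own alleles the stretch could carry. The bounds of the stretches are not in the labels, so only the chromosome was matched. *Hspa5* and *Pdia3* lie on chromosome 3, *Pdia6* on chromosome 6 and *Canx* on chromosome 10. In the line with the donor stretch on that chromosome, the brightest probe set differed from the other lines by 1.02-fold (*Hspa5*) and 1.03-fold (*Pdia3*) in Ept2, by 0.99-fold and 0.98-fold in Ept6, by 1.02-fold in Ept1 (*Pdia6*) and by 1.04-fold in Ept9 (*Canx*). The limma adjusted p ran from 0.766 to 0.968, and the exact permutation p over 220 choices of 3 arrays from 0.105 to 0.841. The signs for *Hspa5* and *Pdia3* turned with quantile normalization, to -0.05 and -0.03 in Ept2 and to 0.08 and 0.06 in Ept6 on the log2 scale, so no direction is given for them. In Ept9 the dimmer *Canx* probe sets gave -0.046 (1371686_at) and 0.084 (1371687_at) on that scale. No direction is given for *Canx* either.

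Whether the members moved together from array to array was read from their correlation with *Hspa5*. Over the 12 arrays, Pearson's r ran from -0.22 (*Xbp1*) to 0.40 (*Sdf2l1*) with a median of 0.26 over the other 9 genes, and the median over 10628 tested genes was 0.02. For *Sdf2l1*, r was 0.40 (permutation p = 0.200), Spearman's rho was 0.40 (permutation p = 0.199) and r was 0.37 without the 2 arrays farthest from the *Hspa5* median. None of the 9 had an unadjusted permutation p under 0.05. The order changed with quantile normalization, where *Pdia6* had the highest r, 0.49 (permutation p = 0.110), and *Sdf2l1* went to 0.15. There *Pdia4* turned from 0.36 to -0.16 and *Xbp1* from -0.22 to 0.19. Within lines, as deviations from line means, r was highest for *Calr*, 0.57 (permutation p = 0.0545), with a rho of 0.53 (permutation p = 0.0794) and an r of 0.46 without those 2 arrays. *Sdf2l1* had a rho of 0.61 there (permutation p = 0.0389, the lowest of the 18 run on deviations), with an r of 0.42 that went to 0.08 without the 2 arrays. Over the 45 pairs of members the median r was 0.26, with 32 pairs above 0, and on deviations 0.22, with 36 above 0. No such values for pairs of other genes are given here, so they do not show that the members vary together more than others.

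The genes most like *Hspa5* over the 12 arrays were not chaperones. The 10 highest were *Pqbp1*, *Sh3glb2*, *Tnc*, *Tmem38a*, *Zfp81*, *Golga7*, *Pcgf1*, *Fam151b*, *Klhdc8b* and *Fbxl12*, with r from 0.89 to 0.79, and the member placed best, *Sdf2l1*, came in place 1106. These are the top values among 10628 and are given as a description. *Hspa5* itself varied little, with an SD of 0.058 on the log2 scale, at percentile 1.05 of the tested probe sets. A low r with it therefore does not show that a chaperone varies apart from it.

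The rest of the ER folding pathway was taken from a list of 118 further genes in 6 groups, of which 112 were on the array and 110 tested. Their median percentile was 96.1, and 58 (51.8%) stood above the 95th. The translocon and the oligosaccharide transferase, which bring new chains into the ER and add their sugars, had the highest median, 98.9, with 24 of 29 above the 95th percentile (*Ssr4* 99.8, *Sec61g* 99.7, *Sec61a2* 65.3). The lectin and glycoprotein folding cycle had a median of 97.1 (*Rcn3* 99.6, *Uggt1* 69.9). The partners of the ER HSP70 had 97.0 (*Manf* 99.3, *Dnajc3* 98.9, *Hyou1* 97.2). The further isomerases had 94.0 (*P4hb* 99.7, *Qsox1* 79.2), and ER-associated degradation had 91.7 (*Erlec1* 99.5, *Sel1l* 74.5).

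The sensors and transcription factors of the UPR had the lowest median of the groups, 82.9, with 2 of 17 above the 95th percentile. These were *Atf4* at 99.2 and *Creb3l1* at 99.1. *Atf6* stood at 92.7 and *Eif2ak3*, which encodes PERK, at 90.1. Genes known to follow PERK and ATF4 under strong stress stood lower, *Ddit3* (CHOP) at 77.8, *Trib3* at 55.9 and *Atf3* at 42.6. Without an untreated gland these places cannot be read as a raised or resting response.

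**Figure D4:**
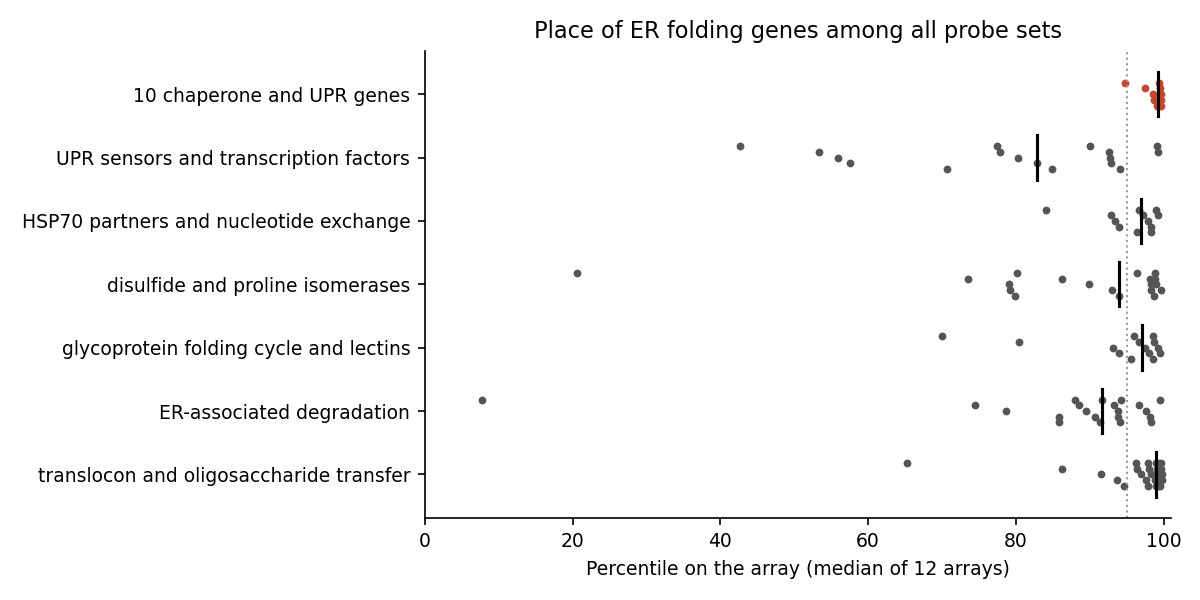
Percentile on the array of the 10 members and of 112 further ER genes in 6 groups, by the brightest probe set of each gene. Each dot is the median of 12 arrays for 1 gene, black bars are group medians and the dotted line is the 95th percentile. The members sit between 94.8 and 99.7, the UPR sensors and transcription factors between 42.6 and 99.2.

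Beyond the members, genes with an ERSE were spread over the array. Of the 21 genes that hold it, 17 were on the array, with a median percentile of 96.1 and 9 above the 95th. Without the 5 members the median of the other 12 was 73.1 with 4 above it, among them *Dnajc3* (98.9), *Hnrnpa3* (98.8) and *Creld2* (98.2). *Birc5*, which encodes survivin, a protein of dividing cells, stood at 48.8 and was called by the F test (limma adjusted p = 0.0320). It was named after its value was seen.

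Of the 110 further ER genes tested, 2 were called by the F test with their brightest probe set (background by gene 0.969%). Against the other lines, 1 was called in Ept9 (0.64%) and 0 in Ept1 (0.179%), Ept2 (0.706%) and Ept6 (0.141%). The 2 genes were *Nfe2l1* and *Qsox1*, and the count by the F test was 0 without Ept9 replicate 2 or without Ept9 replicate 3. At an unadjusted p under 0.05 the limma F test had 10 of the 110 (9.09%), beside 1407 of the 10629 tested genes (13.2%). The dimmer probe sets of the listed genes were searched as well, which added calls of *Qsox1* 1368024_at and *Ube2g2* 1380157_at. How many were searched is not given here, so these calls do not set the genes apart. Of all probe sets tested, 0.988% were called by the F test and 0.773% in Ept2.

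*Nfe2l1* encodes NRF1, a transcription factor anchored in the ER membrane that raises proteasome genes. It lies on chromosome 10, the chromosome of the donor stretch of Ept9. Its brightest probe set (1373278_at) measured 1418, 1338 and 1248 in Ept9, 2295, 1995 and 2255 in Ept1, 2251, 1855 and 2263 in Ept2, and 2238, 2311 and 2272 in Ept6. All 3 Ept9 arrays lay below the 9 others, and the level was 1.63-fold lower in Ept9 (-0.71 ± 0.08 SE on the log2 scale, limma adjusted p = 0.00467). This held in all 22 alternatives. The gene's other 2 probe sets were not called: 1375253_at gave -0.43 in Ept9 (limma adjusted p = 0.419), with 1 Ept9 array of 683 among the other lines, and 1390068_at gave 0.15 (limma adjusted p = 0.697). The 3 probe sets thus did not give the same difference, and the sequence under their probes was not analysed here.

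*Qsox1*, for an enzyme that makes disulfide bonds in secreted proteins, lies on chromosome 13. Its brightest probe set (1368023_at) measured 894, 926 and 968 in Ept6, 760, 764 and 766 in Ept9, 640, 672 and 588 in Ept1, and 498, 616 and 664 in Ept2. Ept6 was above all others, with an limma F adjusted p of 0.0461 that was over 0.05 in 17 of 22 alternatives, the range being 0.00856 to 0.474. The other probe set (1368024_at) measured 200, 222 and 195 in Ept2 and 265, 218 and 322 in Ept1, so that these lines overlapped. Against the mean of the other 3 lines it was 1.89-fold lower in Ept2 (limma adjusted p = 0.0298), a p that was over 0.05 in 10 of 22 alternatives. Both ranked Ept2 lowest, but 1368024_at did not separate Ept6 (567, 575 and 357) from Ept9 (535, 439 and 532).

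*Ube2g2*, for a ubiquitin-conjugating enzyme of ER-associated degradation on chromosome 20, was called in Ept2 only in the search of dimmer probe sets (1380157_at). It measured 478, 400 and 512 in Ept2, against 565 to 690 on the 9 other arrays (-0.43, limma adjusted p = 0.0453, over 0.05 in 16 of 22 alternatives). Its brightest probe set gave 0.01 (limma adjusted p = 0.976). *Sel1l*, which holds the ubiquitin ligase complex of that pathway together, had its highest mean in Ept6, 645 ± 47.2 (SD, n = 3), and its lowest in Ept2, 459 ± 12.2, with an limma F adjusted p of 0.0802. The other genes named by size of difference in each group were *Faf2*, *Hyou1*, *Sdf2*, *Trib3*, *Fkbp7*, *Uggt1*, *Man1b1*, *Sec61a2* and *Srprb*, with limma F adjusted p from 0.204 to 0.726.

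**Figure D5:**
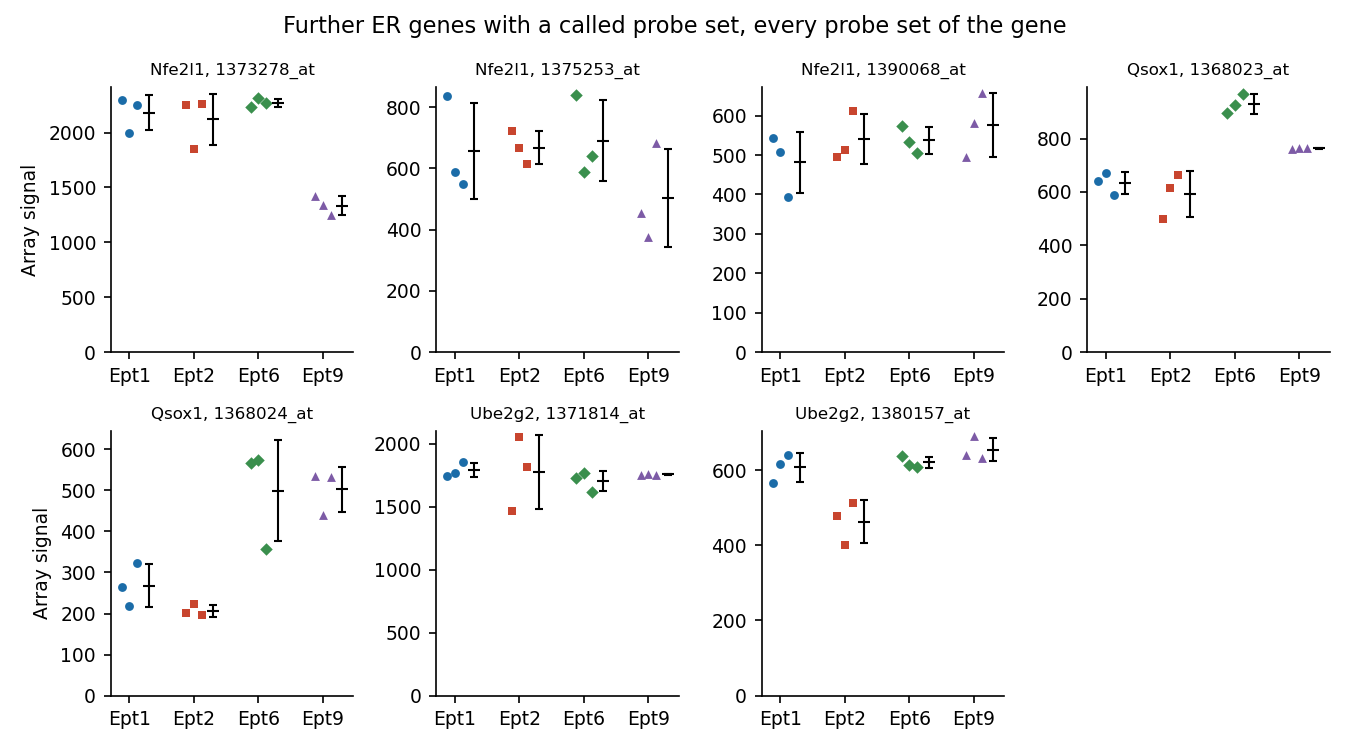
Signal of every probe set of *Nfe2l1*, *Qsox1* and *Ube2g2*, the further ER genes with at least 1 called probe set. Symbols are single arrays by line, and the bars beside them are the mean ± SD of 3 arrays, on axes that start at 0. *Nfe2l1* 1373278_at is low in all 3 Ept9 arrays, while its other probe sets overlap between lines.

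Some measures of the samples moved with the lines. The *Gapdh* control probe sets at the 3′ end exceeded those at the 5′ end, a sign of RNA integrity, by 0.31 to 0.42 on the log2 scale in Ept2 and 0.09 to 0.28 in the other lines, and those lines overlapped Ept2 in the same measure of beta-actin (1.76 to 1.85 in Ept2, 1.49 to 1.79 elsewhere) and of hexokinase (1.31 to 1.84 in Ept2, 0.71 to 1.64 elsewhere). With the *Gapdh* difference as a covariate no call of *Qsox1* or *Ube2g2* was kept. The largest difference between line means of *Qsox1* went from 0.64 to 0.58 (1368023_at, limma adjusted p = 0.474) and from 1.22 to 1.61 (1368024_at, limma adjusted p = 0.204), and *Ube2g2* 1380157_at in Ept2 went from -0.43 to -0.57 (limma adjusted p = 0.428). The tissue label was met by its markers, with *Prl* at percentile 100 and *Gh1* and *Cga* at 99.9, while *Avp* (15.2) and *Oxt* (24.9), of the posterior lobe, were dim and 0 of 6 posterior lobe genes passed the filter. *Pomc* of the corticotrophs stood at 33.2. The summed signal of 5 somatotroph markers was 38551 to 46542 in Ept2 and 30011 to 38274 elsewhere, and that of 6 folliculostellate and stem cell markers was 2005 to 2748 in Ept2, 1338 to 1596 in Ept6 and 1764 to 1861 in Ept1 and Ept9. Ept6 was also below all other arrays in the sums of 6 gonadotroph markers (29606 to 31443, others from 31496), 5 thyrotroph markers (36839 to 39942, others from 40273, both lists holding *Cga*) and 2 erythroid markers (13217 to 14370, others from 15628). Several of these sums were mostly a single gene. By median signal *Cga* stood at 32002, the other gonadotroph markers at 319 or less and *Tshb* of the thyrotrophs at 6857. *Hbb* stood at 17551 against 384 for *Alas2*, and *Gh1* at 33708 against 2623 or less for the other somatotroph markers. Such sums do not show that the dimmer markers shifted. Plasma cells are rich in ER, and 6 plasma and B cell markers summed to 1392 to 1570 in Ept1 and 1600 to 3227 in the other lines. That shift was carried by *Mzb1* (976 to 1117 in Ept1, 1233 to 2723 elsewhere), since the other 5 genes summed to 416 to 454 in Ept1 and 367 to 568 elsewhere, and *Cd79b*, *Ms4a1* and *Pou2af1* did not pass the filter. The part of these shifts in the values above was not tested.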

How the data were processed

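Total RNA of anterior pituitary glands was labelled with biotin and measured on 12 expression arrays. The authors deposited 1 linear intensity (signal) per probe set and array, for 31099 probe sets; the values show scaling to a common trimmed mean (2% cut at each end), and neither the software nor the background correction is given in the sources used here. The deposited intensity was taken to log2(signal + 16) without rescaling. After 57 control probe sets were removed, the 12416 under the 40th percentile of mean signal (69.5) were left out as dim. All fold changes refer to that scale, which makes the change of a dim gene look smaller. The precision is limited by the number of arrays, whose correlations ran from 0.966 to 0.983.

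Lines were compared with limma 3.58.1 in R 4.3.3, over all 12 arrays and 18626 probe sets, with Benjamini-Hochberg adjustment within each test. Exact permutation tests, correlations with 100000 resamples, ranks and motif searches were run in Python 3.11.15 with scipy 1.17.1. The limma tests were tested on simulated data. Symbols came from the platform annotation, where 20826 probe sets have 1, 436 have several and 9780 have none; chromosomes and promoters came from RefSeq on GRCr8. The brightest probe set stands for a gene, and all probe sets of a member are reported. Of the further ER genes, those called and those with the largest line differences in each group were named. The members and gene lists were chosen with earlier results of these data known. The results were computed again with another pseudocount (1 or 64), with arrays quantile-normalized or centred on their medians, without the filter on dim probe sets or with it at the 60th percentile, with replicate numbers as blocks, with array weights or a trend in eBayes, with the *Gapdh* difference as a covariate, and without each array in turn.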

Additional observations from a re-analysis of the deposited data

How the results depend on the processing

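Under 22 alternatives, of which 12 leave out 1 array, the count of called members was 0 in each of the 5 tests, and the lowest limma adjusted p of a member was 0.0512 (*Canx* 1371686_at in Ept2, with an eBayes trend). The number of further ER genes called by limma's F test went from 2 to 1 with a pseudocount of 1, quantile normalization, median centring, the replicate block and the *Gapdh* covariate, to 0 without a filter and to 3 with the filter at the 60th percentile, and ran from 0 to 2 when single arrays were left out. It was 0 without Ept9 replicate 2 or Ept9 replicate 3, where the limma F adjusted p of *Nfe2l1* was 0.0627 and 0.0743. No shared deviation of same-numbered arrays was seen (correlations of -0.135 to 0.0732 over 18 pairs, and 4 of 12 arrays matched their own number best). These values cannot tell whether same-numbered arrays were handled together. *Hspa5* in Ept2 was 0.031 and turned to -0.0458 with quantile normalization and to -0.00407 with median centring. *Hspa5* in Ept6 turned to 0.0807 and *Pdia3* to -0.0307 in Ept2 and 0.0648 in Ept6 with quantile normalization. With single arrays left out, *Hspa5* in Ept6 ran from -0.0457 to 0.0135, *Pdia3* in Ept2 from -0.0314 to 0.0838 and *Pdia3* in Ept6 from -0.0611 to 0.0116. The cause was not tested. Ranked among genes with 1 probe set each, the median percentile of the members was 98.8 and the lowest 91.3.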
